A study of Rattus norvegicus with 6 samples.

Results

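The AP-1 and EGR immediate early factors are 10 transcription factor genes, named Fos, Fosb, Fosl1, Fosl2, Jun, Junb, Jund, Egr1, Egr2 and Egr3. They were taken by gene symbol from a table of 34156 rat genes, where each symbol named 1 row. The cells were RA-FLS, rat fibroblast-like synoviocytes (fibroblasts of the joint lining) acquired from a supplier and labelled as wild type, with rheumatoid arthritis as the disease. RNA-seq was run on 3 samples given 10 ng/ml tumour necrosis factor alpha (the TNF-α group) and on 3 given the same TNF-α together with 80 µmol/L emodin, an anthraquinone found in rhubarb (the TNF-α+EMO group). The labels give day 5 as the time point of all 6, whereas the methods of the study give a shorter incubation. Both groups carried TNF-α, so each value below is a level or a difference in TNF-α-treated cells, and neither untreated cells nor cells with emodin alone were analysed here. The methods of the study name 3 biological replicates per condition, but neither they nor the labels say that these were separate cultures. The p-values therefore measure the spread between these samples, part of which may be technical.

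AP-1 is a pair of proteins held together by leucine zippers. FOS proteins (Fos, Fosb, Fosl1, Fosl2) bind DNA only when paired with a partner, usually a JUN protein, whereas JUN proteins (Jun, Junb, Jund) can also pair with each other, and the make-up of the pair sets its strength as an activator. EGR proteins are zinc finger factors that bind GC-rich sites and are held back by the corepressors Nab1 and Nab2. Most of these genes are transcribed within minutes of a stimulus such as TNF-α through kinases and serum response factor, their mRNAs decay fast, and in synovial fibroblasts AP-1 is known for driving matrix metalloproteinase genes.

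Each library held 16813322 to 17794455 counts. A count of 3, taken here as the floor of detection, corresponded to 0.170 to 0.180 CPM (the usual unit of counts scaled to library size, here the effective one), and covers counting error only. Mitochondrially encoded genes took 3.35% to 3.58% of the counts with TNF-α and 0.363% to 0.399% with TNF-α+EMO. Of the fibroblast markers, 5 of the 6 that could be tested fell by more than 1 on the log2 scale, and their summed level was 11665 to 12836 CPM with TNF-α and 2045 to 2201 CPM with TNF-α+EMO. The markers Thy1, Pdpn and Prg4 were at 7 counts or fewer in every library. Of the macrophage markers, 3 of 8 could be tested, of which Cd14 was called lower and Itgam higher. The remaining tested marker, Cd68, went up from 8.89 CPM with TNF-α to 14.9 CPM with TNF-α+EMO on average. Its log2 fold change of 0.75 was under the fold limit of a call. Over all genes tested, 27.8% were called lower and 19.5% higher. Itgam had 1, 0 and 0 counts with TNF-α and 12, 10 and 14 with TNF-α+EMO. It passed the filter on low counts through its TNF-α+EMO libraries alone. Summed macrophage markers were at 70.0 to 76.1 CPM and 43.5 to 47.6 CPM with Cd163 at 0, smooth muscle markers at 49.3 to 54.0 and 3.30 to 4.09 CPM, endothelial markers at 4.03 to 4.45 and 0.771 to 1.26 CPM with Kdr at 0, epithelial markers at 579 to 629 and 115 to 134 CPM with Epcam at 0, and T cell markers at 0.290 CPM or below with Cd3d and Cd3g at 0. Krt8 alone, at 605 and 125 CPM on average, made up nearly all of the epithelial sum. The epithelial markers Cdh1, Krt18 and Krt19 were at 8 counts or fewer in every library. Cd14, at 63.6 and 29.7 CPM on average, made up most of the macrophage sum. The macrophage markers Ptprc, Csf1r, Adgre1 and Mrc1 were at 6 counts or fewer in every library. The part of these shifts in the results below was not tested. In such bulk samples, fewer cells of a type and less RNA per cell cannot be told apart.

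With TNF-α+EMO, Fos, Egr1, Egr2 and Egr3 fell, and Fosl1, Jun and Jund rose. Fosb, Fosl2 and Junb did not pass the test. A gene is called here when the adjusted p of edgeR's quasi-likelihood test (Benjamini-Hochberg) is under 0.05 and the log2 fold change is over 1 in size. By this rule, 4 of the 10 factors were called lower and 3 higher, where 27.8% of the 13614 genes tested were called lower and 19.5% higher. With the adjusted p alone the factors called were as many, against 41.4% of genes lower and 39.4% higher. All 10 factors passed the filter on low counts, Fos through its TNF-α libraries alone. The share of all genes that were called is high, so the number of factors called is read below together with the size of each change. Absolute log2 changes over 2 were found for Fos and Egr1 among the lower factors, against 16.6% of all genes tested, and for Fosl1 and Jund among the higher ones, against 5.94%.

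**Figure D1:**
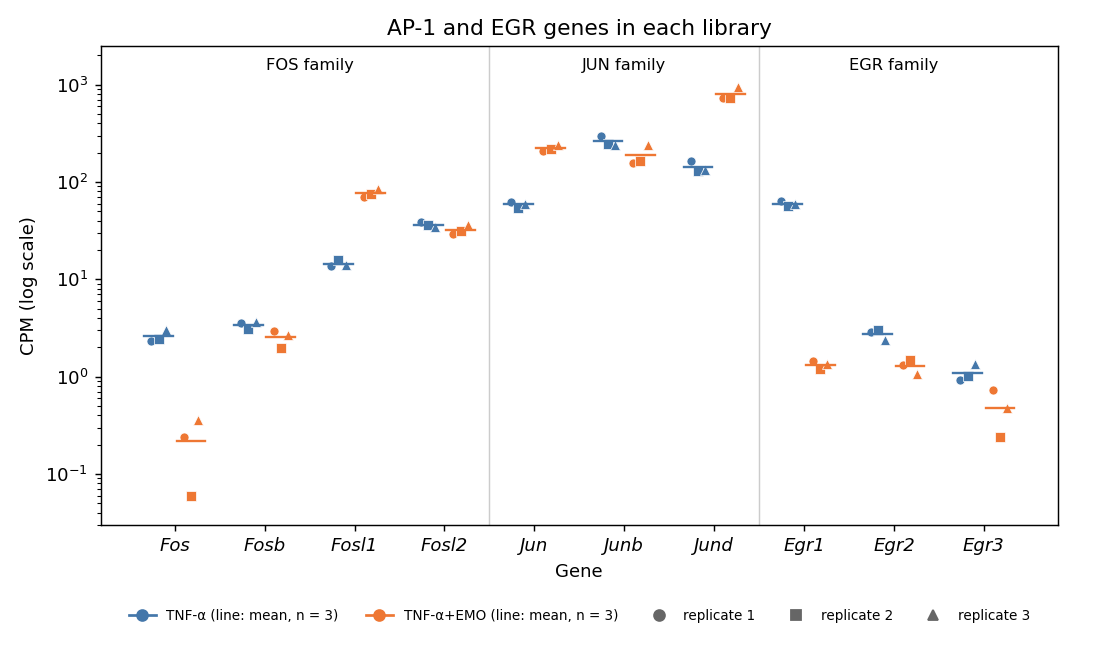
CPM of the 10 genes (log axis) in each of the 6 libraries, with TNF-α in blue, TNF-α+EMO in orange, marker shapes for replicates and a line at each group mean. Egr1 lies between 57.0 and 63.1 CPM with TNF-α and between 1.19 and 1.44 CPM with TNF-α+EMO, whereas Fosl1, Jun and Jund lie higher with TNF-α+EMO in all 3 libraries.

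**Figure D2:**
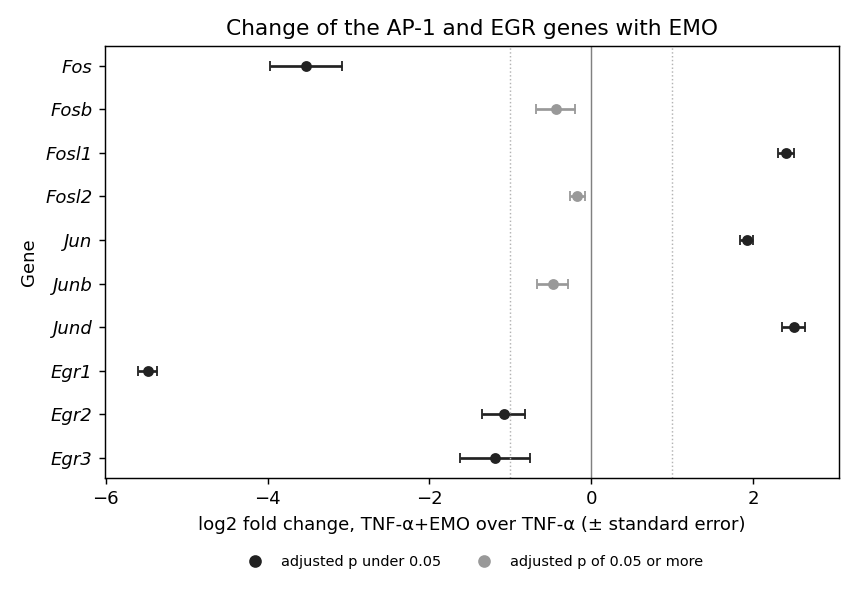
Log2 fold change of each gene, TNF-α+EMO over TNF-α, with its standard error, and dotted lines at a change of 1. Points in black passed an adjusted p of 0.05 and grey points (Fosb, Fosl2, Junb) did not.

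Promoter sequences of 7 of the 10 genes (all but Fos, Jun and Egr3) were matched by symbol in RefSeq's rat assembly GRCr8, as windows of 250 bases before to 50 bases after the transcription start. The windows were searched on both strands for the cyclic AMP response element (CRE) TGACGTCA, which JUN and ATF pairs bind, its half-site TGACG, the AP-1 site TGANTCA, the EGR site GCGNGGGCG, the serum response factor's CArG box, the TATA box TATAA and the kappaB site. A CRE holds a half-site on each strand. The 250 bases before the start are printed for Jund and Junb, JUN genes of which the first rose, for Fosl1, the FOS gene that rose, and for Egr2, which fell, with matches in capitals. They are read 5′ to 3′ along the gene, and lie at chr16:18769772-18770021 (- strand, Jund), chr19:40080876-40081125 (+ strand, Junb), chr1:212183635-212183884 (+ strand, Fosl1) and chr20:21054442-21054691 (- strand, Egr2).
Jund: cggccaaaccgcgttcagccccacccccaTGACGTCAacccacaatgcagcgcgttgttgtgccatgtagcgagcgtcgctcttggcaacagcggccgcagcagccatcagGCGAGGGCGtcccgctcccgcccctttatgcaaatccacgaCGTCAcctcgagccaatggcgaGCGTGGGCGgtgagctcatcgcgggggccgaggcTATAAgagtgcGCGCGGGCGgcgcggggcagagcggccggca
Junb: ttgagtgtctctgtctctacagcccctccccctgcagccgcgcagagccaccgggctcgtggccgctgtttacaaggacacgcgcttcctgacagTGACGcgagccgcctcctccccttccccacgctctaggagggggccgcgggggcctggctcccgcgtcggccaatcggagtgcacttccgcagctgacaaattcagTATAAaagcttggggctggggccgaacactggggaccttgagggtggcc
Fosl1: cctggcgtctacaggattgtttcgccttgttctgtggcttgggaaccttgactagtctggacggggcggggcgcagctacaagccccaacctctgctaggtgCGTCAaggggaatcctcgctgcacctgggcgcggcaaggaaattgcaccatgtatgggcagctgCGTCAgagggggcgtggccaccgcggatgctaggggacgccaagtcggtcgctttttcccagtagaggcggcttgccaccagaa
Egr2: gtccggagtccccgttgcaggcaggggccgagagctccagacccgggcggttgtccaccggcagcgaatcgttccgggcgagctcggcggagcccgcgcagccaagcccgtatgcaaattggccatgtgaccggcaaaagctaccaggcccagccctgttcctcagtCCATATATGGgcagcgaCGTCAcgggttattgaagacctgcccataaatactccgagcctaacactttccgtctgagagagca
The Jund window held a CRE that began 221 bases before the start, 1 further half-site, 3 EGR sites that began 139, 76 and 31 bases before it, and a TATA box 42 bases before it. The Junb window had a half-site 155 bases and a TATA box 49 bases before the start, and the Fosl1 window had half-sites 148 and 84 bases before it. A CArG box began 83 bases before the start of Egr2, with a half-site 66 bases before it. The unprinted Egr1 window held CArG boxes 105 and 83 bases and half-sites 135 and 66 bases before its start. The Fosl2 window had 2 EGR sites. That of Fosb had the TATA box letters on the opposite strand only, 179 bases before the start. A kappaB site lay after the start of Jund, as did 2 overlapping TATA boxes after that of Egr2. No window of the 7 held an AP-1 site in these letters. Over the 33469 RefSeq promoters, the CRE was found in 1.83%, its half-site in 21.2%, the AP-1 site in 7.33%, the CArG box in 1.64%, the EGR site in 4.98%, the TATA box in 26.2% and the kappaB site in 7.51%. A match describes the letters of the window and was not tested for binding.

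Among the FOS genes, Fos fell and Fosl1 rose. Fos (ENSRNOG00000008015, chromosome 6, 109300433 to 109303299, + strand) encodes the founding, strongly activating and short-lived member of the family. It was at 2.34, 2.44 and 3.01 CPM with TNF-α and at 0.240, 0.0596 and 0.356 CPM with TNF-α+EMO. The groups did not overlap. Fos had 4, 1 and 6 counts in the TNF-α+EMO libraries, with replicate 2 under the floor of 3 counts and the others close above it. Its level fell by 3.53 on the log2 scale (SE 0.44, adjusted p = 2.3e-05), or 11.5-fold. Summed over libraries, the 137 counts against 11 gave a scaled ratio of 11.9 with an exact 95% interval from 6.43 to 24.3 that covers counting error only. Without any 1 of the TNF-α libraries Fos was not kept by the filter, and with the genes tested held fixed it passed the test without each of the 6 in turn.

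Fosl1 (ENSRNOG00000020552, chromosome 1, 220826560 to 220835066, + strand) encodes FRA-1, a FOS protein without the transactivation domain of Fos. It was at 13.8, 15.7 and 14.0 CPM with TNF-α and at 69.4, 76.1 and 83.9 CPM with TNF-α+EMO. Every library with TNF-α+EMO stood far above every library with TNF-α. It rose by 2.40 on the log2 scale (SE 0.10, adjusted p = 2.0e-09), or 5.27-fold, and moved from percentile 43.7 to percentile 82.1 of the level per length among the genes tested.

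Fosl2 (ENSRNOG00000052357, chromosome 6, 25598936 to 25616995, - strand) encodes FRA-2, the other FOS protein that lacks that domain. It was at 39.2, 35.9 and 34.2 CPM with TNF-α and at 29.5, 31.7 and 35.9 CPM with TNF-α+EMO. The groups overlapped, and the log2 fold change of -0.17 (SE 0.10, adjusted p = 0.12) did not pass the test. Without TNF-α replicate 3 it was -0.29 (adjusted p = 0.045), and without TNF-α+EMO replicate 3 it was -0.23 (adjusted p = 0.022). With the genes tested held fixed, the first was -0.22 (adjusted p = 0.11) and did not pass. The other was -0.26 (adjusted p = 0.012). Fosb (ENSRNOG00000046667, chromosome 1, 80214494 to 80221710, - strand), a close relative of Fos, was at 3.54, 3.12 and 3.63 CPM and at 2.94, 1.97 and 2.67 CPM. Its groups did not overlap, but the log2 fold change of -0.44 (SE 0.24, adjusted p = 0.11) did not pass the test.

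Among the JUN genes, Jun and Jund rose, whereas Junb did not pass the test. Jund (ENSRNOG00000019568, chromosome 16, 20485029 to 20486707, - strand) encodes the family member known for steady expression in resting cells. It was at 165, 129 and 132 CPM with TNF-α and at 728, 723 and 955 CPM with TNF-α+EMO. The groups were far apart, with replicate 3 the highest of the TNF-α+EMO libraries. It rose by 2.50 on the log2 scale (SE 0.14, adjusted p = 6.8e-07), or 5.65-fold, the highest fitted value among the 10 factors and within its standard error of that of Fosl1. Jun (ENSRNOG00000026293, chromosome 5, 114011189 to 114014277, - strand), which encodes the strongly activating c-Jun, was at 62.9, 54.1 and 59.2 CPM and at 209, 216 and 242 CPM. It was higher in each library with TNF-α+EMO than in any with TNF-α. It rose by 1.92 on the log2 scale (SE 0.08, adjusted p = 2.2e-09), or 3.79-fold.

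Junb (ENSRNOG00000042838, chromosome 19, 26092974 to 26094756, - strand) encodes a JUN protein that is a weaker activator than c-Jun and can oppose it. It was at 295, 246 and 242 CPM with TNF-α and at 157, 163 and 243 CPM with TNF-α+EMO. TNF-α+EMO replicate 3 alone reached the TNF-α group, at 1.51 times the mean of the other two. The log2 fold change of -0.48 (SE 0.19, adjusted p = 0.057) did not pass the test. Without TNF-α+EMO replicate 3 it was -0.68 (SE 0.08, adjusted p = 3.2e-06), and without TNF-α replicate 3 it was -0.60 (adjusted p = 0.039). With the genes tested held fixed, the first was -0.71 (adjusted p = 2.4e-06). The other was -0.53 (adjusted p = 0.059) and did not pass.

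All 3 EGR genes fell, Egr1 by far the most. Egr1 (ENSRNOG00000019422, chromosome 18, 27657628 to 27661429, + strand) encodes the zinc finger factor most used as a mark of an immediate early response. Its counts were 1105, 1004 and 1039 with TNF-α and 24, 20 and 23 with TNF-α+EMO. In CPM it was at 63.1, 57.0 and 58.9 against 1.44, 1.19 and 1.36, so the groups lay far apart and the libraries within each lay close together. It fell by 5.48 on the log2 scale (SE 0.12, adjusted p = 1.7e-11), or 44.6-fold, the largest change among the 10 factors, and moved from percentile 64.8 to percentile 11.1 of the level per length.

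Egr2 (ENSRNOG00000000640, chromosome 20, 22454463 to 22459025, - strand), known from nerve myelination and lymphocytes, was at 2.86, 3.01 and 2.38 CPM with TNF-α and at 1.32, 1.49 and 1.07 CPM with TNF-α+EMO. The groups did not overlap, and it fell by 1.08 on the log2 scale (SE 0.27, adjusted p = 0.0032), or 2.12-fold. Without TNF-α+EMO replicate 3 the log2 fold change was -0.94 (adjusted p = 0.0090), under the fold limit of a call. Egr3 (ENSRNOG00000017828, chromosome 15, 51756736 to 51760722, + strand) was the lowest of the family at 0.913, 1.02 and 1.36 CPM and 0.720, 0.238 and 0.474 CPM. Its groups did not overlap, and it fell by 1.19 on the log2 scale (SE 0.43, adjusted p = 0.026), from 58 counts over the TNF-α libraries to 24. The scaled ratio of the summed counts, 2.30, had an exact 95% interval from 1.41 to 3.88 that covers counting error only, not the spread between libraries. The call for Egr3 rested on single libraries: without TNF-α replicate 3 the log2 fold change was -1.08 (adjusted p = 0.078), and without TNF-α+EMO replicate 2 it was -0.85 (adjusted p = 0.089). Over the 10 factors, the groups did not overlap for 8, where 82.9% of all genes tested had groups that did not overlap.

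To compare levels between genes, CPM was divided by the deposited gene length in kilobases (CPM per kb). With TNF-α, Junb was the highest at 147 ± 16.6 CPM per kb (SD, n = 3), followed by Jund at 84.6 ± 11.9 and Fosl2 at 49.0 ± 3.44. Egr1 at 19.1 ± 0.996 and Jun at 19.0 ± 1.43 overlapped, and Fosl1 was at 8.72 ± 0.643. Fos at 1.63 ± 0.225 stood above Fosb at 0.917 ± 0.0724 and Egr2 at 0.850 ± 0.101, which overlapped, and Egr3 was last at 0.405 ± 0.0861. With TNF-α+EMO the order began with Jund at 478 ± 78.9 CPM per kb, Junb at 105 ± 26.7 and Jun at 72.0 ± 5.65, whose ranges did not overlap. Fosl1 at 46.0 ± 4.36 and Fosl2 at 43.5 ± 4.36 overlapped. Below Fosb at 0.675 ± 0.135, Egr1 at 0.426 ± 0.0408 and Egr2 at 0.400 ± 0.0657 overlapped, as did Egr3 at 0.176 ± 0.0889 and Fos at 0.137 ± 0.0939. The length given for Fosl2, 744 bases, is shorter than its known coding sequence, so its level per length is uncertain.

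Jund and Junb exchanged places as the leading JUN transcript. Jund made up 33.8% ± 0.782 of the summed JUN level per kb with TNF-α and 73.0% ± 0.523 with TNF-α+EMO (SD, n = 3), whereas Junb made up 58.6% ± 0.732 and 15.9% ± 1.28. The ratio of Jund to Junb within a library, which no scaling between libraries alters, was 0.593, 0.555 and 0.580 with TNF-α and 4.92, 4.71 and 4.18 with TNF-α+EMO. The libraries of a group lay close together and the groups differed 7.97-fold. Jun made up 7.63% ± 0.526 and 11.1% ± 0.958 of the JUN sum, and the sum itself went from 250 ± 29.6 to 655 ± 111 CPM per kb.

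In the FOS family, the share of Fosl1 went from 14.5% ± 1.36 to 50.9% ± 0.457 and that of Fosl2 from 81.2% ± 1.64 to 48.1% ± 0.257. The Fosl1 to Fosl2 ratio was 0.157, 0.196 and 0.183 with TNF-α and 1.05, 1.07 and 1.05 with TNF-α+EMO, a 5.94-fold difference whose size between groups does not depend on the gene length used. The shares within the FOS family and its sum do depend on it. Fos held 2.73% of the sum with TNF-α and 0.150% with TNF-α+EMO, and the FOS sum went from 60.2 ± 3.09 to 90.3 ± 8.73 CPM per kb. The EGR sum went from 20.3 ± 0.957 to 1.00 ± 0.115 CPM per kb, a 20.3-fold lower level, and the share of Egr1 in it from 93.8% to 42.6%. For each of these shares and ratios the groups did not overlap, and the two-sided exact permutation test gave p = 0.1, the smallest that 3 libraries against 3 allow.

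**Figure D3:**
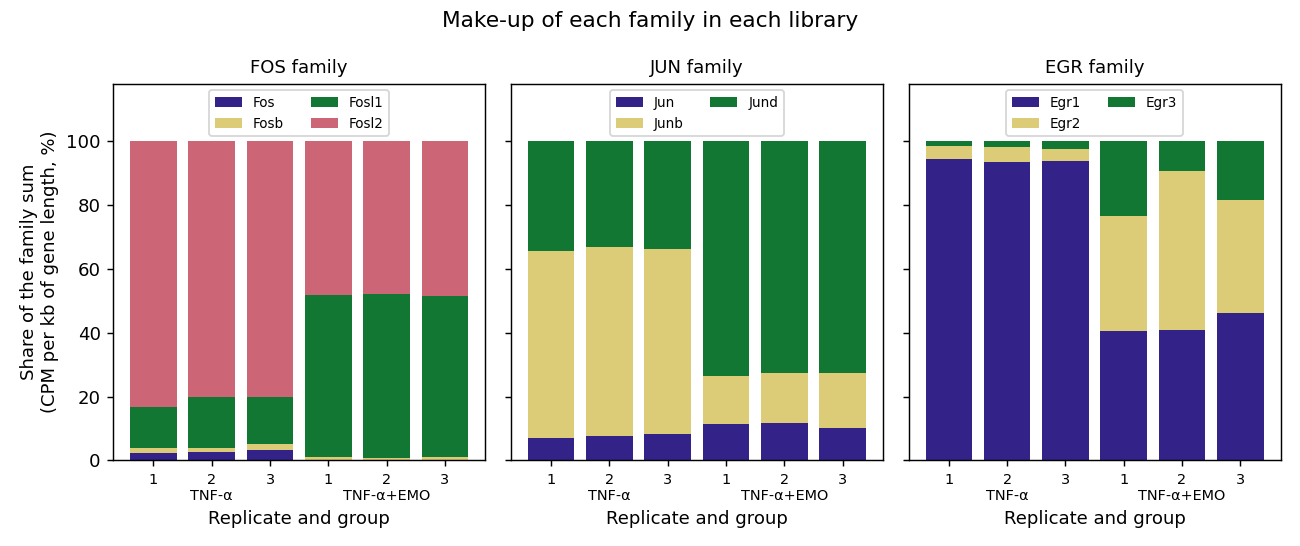
Share (%) of each gene in the summed CPM per kb of its family, as stacked bars for each of the 6 libraries. Jund takes the larger part of the JUN bars with TNF-α+EMO in place of Junb, Fosl1 takes 50.9% of the FOS bars on average, and Egr1 no longer fills most of the EGR bars.

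The factors were set beside the rest of their own classes in the deposited annotation. Of 36 other tested basic leucine zipper genes, 9 were called lower and 11 higher (median log2 fold change 0.31). Of 355 other tested C2H2 zinc finger genes, the class of the EGR factors, 60 were called lower and 42 higher, with a median of 0.11. The 3 JUN genes have no introns in the deposited annotation, and of 491 other tested protein-coding genes whose span equals their length, 142 were called lower and 129 higher, with a median of 0.29. Over all genes tested, 27.8% were called lower and 19.5% higher, and the median was -0.01.

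The genes around AP-1 and EGR were taken from lists of known partners, regulators and targets. Over all of these lists, 85 of 99 genes could be tested, of which 30 were called lower and 17 higher (median log2 fold change -0.19). Of 11 tested zipper partners of AP-1, 2 were called lower and 4 higher (median 0.64). Atf3, a stress-induced factor that pairs with JUN proteins, had 15, 19 and 19 counts with TNF-α and 833, 836 and 847 with TNF-α+EMO. Its groups lay far apart, and it rose by 5.63 on the log2 scale (SE 0.12, adjusted p = 1.7e-11), or 49.4-fold. The small MAF genes Mafk and Maff rose by 2.23 (SE 0.12) and 2.18 (SE 0.19) on that scale. Maf fell by 4.24 (SE 0.16). Batf2 had 177 counts in all with TNF-α and 3 with TNF-α+EMO, a ratio of 56.3 with an exact 95% counting interval from 18.9 to 275. Without any 1 of the TNF-α libraries, Batf2 was not kept by the filter and 1 partner was called lower.

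Both corepressors that bind EGR proteins fell. Nab1 fell by 1.32 on the log2 scale (SE 0.09, adjusted p = 1.9e-07) and Nab2 fell by 1.36 (SE 0.09, adjusted p = 1.5e-07). Egr4, the remaining EGR gene, had 1 count in 1 library and was not tested. Over all genes tested, 27.8% were called lower and 19.5% higher. Of 7 tested serum response factor, ternary complex factor and CREB genes, 2 (28.6%) were called lower and 0 higher (median -0.44). At an adjusted p under 0.05 without a limit on the fold, 5 of these were lower and 1 higher, against 41.4% and 39.4% of all genes tested. Elk3, a ternary complex factor, fell by 2.12 (SE 0.07), and the actin-regulated coactivator Mrtfa fell by 1.49 (SE 0.06). Srf itself, which binds the CArG box, fell by 0.44 (SE 0.08, adjusted p = 2.9e-04), under the fold limit of a call.

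Of 17 tested kinases of the ERK, JNK and p38 cascades, 4 (23.5%) were called lower and 1 (5.88%) higher (median -0.19). Over all genes tested these shares were 27.8% and 19.5%. Mapk3, an ERK gene, fell 2.26-fold (adjusted p = 2.5e-08), and Mapk14, a p38 gene, fell 2.29-fold (adjusted p = 1.8e-08). Map2k2, which encodes MEK2, rose by 1.49 on the log2 scale (SE 0.12), and Rps6ka1, a kinase below ERK, fell by 1.31 (SE 0.11). Map2k3, a kinase above p38, fell by 2.14 (SE 0.69, adjusted p = 0.039), but its TNF-α+EMO libraries were spread over 225, 88 and 36 counts. These are mRNA levels, and no kinase activity was measured.

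Of 20 other immediate early genes tested, 6 were called lower and 8 higher (median 0.10), where 27.8% of all genes tested were called lower and 19.5% higher. Ccn2, a matricellular gene, fell by 7.41 on the log2 scale (SE 0.18), and the pseudokinase gene Trib1 fell by 3.79 (SE 0.11). Ppp1r15a, the stress-induced GADD34, rose by 4.52 (SE 0.11), and the nuclear factor gene Csrnp1 by 2.29 (SE 0.11).

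Of 11 tested genes known as AP-1 targets, 6 (54.5%) were called lower and 2 (18.2%) higher (median -1.05). Over all genes tested these shares were 27.8% and 19.5%. Mmp9, a gelatinase, fell by 7.41 on the log2 scale (SE 0.11) and Spp1, which encodes osteopontin, fell by 5.60 (SE 0.07). Mmp13, a collagenase, rose by 2.09 (SE 0.11) and the urokinase receptor gene Plaur by 1.20 (SE 0.16). Of the other metalloproteinase genes in this list, Mmp3 fell by 0.48 (SE 0.12, adjusted p = 0.0065), under the fold limit of a call. Mmp10 did not pass the test (log2 fold change 0.33, adjusted p = 0.090). Of 9 tested genes known as EGR1 targets, 6 (66.7%) were called lower and 1 (11.1%) higher (median -2.46), against the same shares of all genes tested. Fn1, which encodes fibronectin, fell by 5.81 (SE 0.08). Ptges, the inducible prostaglandin E synthase gene, had 32, 25 and 15 counts with TNF-α and none with TNF-α+EMO, at least 7.63-fold lower against a floor of 3 counts per library. It passed the filter on low counts through its TNF-α libraries alone. With 1 library left out, 5 to 6 of the EGR1 targets were called lower. Gdf15, a stress cytokine gene, had 5 counts in all with TNF-α and 1696 with TNF-α+EMO, a ratio of 356 with an exact 95% counting interval from 152 to 1097. Without any 1 of the TNF-α+EMO libraries, Gdf15 was not kept by the filter and 0 of these targets were called higher.

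**Figure D4:**
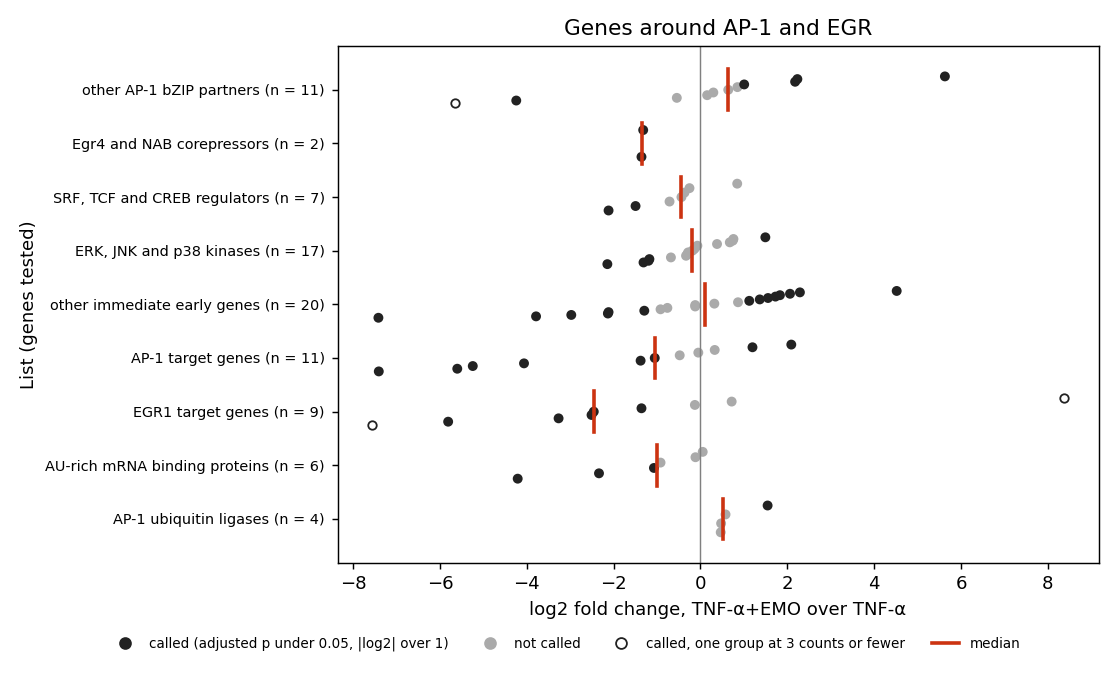
Log2 fold change of each tested gene of the 9 related lists, TNF-α+EMO over TNF-α, in black where called, grey where not and open where a group had 3 counts or fewer in each library (fitted values that depend on the prior count), with the list median in red. Each of the lists of AP-1 and EGR1 targets holds called genes on both sides of 0, with medians of -1.05 and -2.46.

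For each factor, the gene outside the 10 with the smallest root mean square difference in centred log2 CPM over the 6 libraries was found. It was Gdf11 for Egr1 (0.0635), Dck for Egr2 (0.0452), Tspyl2 for Jun (0.0321), Zbed5 for Jund (0.0803), Pdcd2 for Fosl1 (0.0599), Zbtb7a for Junb (0.0725), Wdr33 for Fosl2 (0.0321) and Tmem70 for Fosb (0.0747). For the low genes Fos and Egr3 the nearest, Akr1c12 (0.171) and Qrich2 (0.208), lay farther away. Within a distance of 0.2 there were 1494 genes for Fosl2, 452 for Jun, 86 for Jund, 39 for Egr1, 4 for Fos and 0 for Egr3.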

How the data were processed

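RNA-seq was done on 3 TNF-α and 3 TNF-α+EMO samples of rat RA-FLS, grouped by their labels. Libraries were poly(A)-selected and read from both ends by a sequencing provider, and the submitters' processing notes name FastQC, Trimmomatic, HISAT2 and the genome build Rnor_6.0, which the coordinates of the counted genes follow. The counting program, annotation version and strand setting are not given in the sources used here. Every value comes from the raw counts per gene that the authors deposited. The length in bases that the authors deposited served for levels per kb. The FPKM values they deposited were not used. The deposited comparison columns (a group mean score, a log2 fold change, and p-values) were not used.

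The 13614 genes that reached 10 counts in 3 or more libraries were scaled by TMM and fitted with the quasi-likelihood test of edgeR 4.0.16 (robust) in R 4.3.3, with Benjamini-Hochberg adjustment over all of them. The SE is the size of the log2 fold change over the square root of F. The common biological coefficient of variation was 0.121. DESeq2 1.42.0 was an alternative, as were other scalings, filters, call limits and leaving out libraries. The factors and lists were chosen with earlier results of these data known. The named genes were all 10 factors, at most the 2 lowest and 2 highest called genes of each list, Atf3, Egr4, Nab1, Nab2 and Srf, and the nearest gene to each factor. Mmp3, Mmp10, Mapk3, Mapk14 and some cell type markers were named in addition. Shares and ratios were compared by exact permutation over samples. Promoter windows are of GRCr8 and were not joined to Rnor_6.0 coordinates.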

Additional observations from a re-analysis of the deposited data

How the results depend on the processing

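No factor changed direction under any alternative. Fos, Fosb, Fosl1, Jun, Jund, Egr1 and Egr2 kept their side of an adjusted p of 0.05 in each alternative where they were tested. Junb passed it with upper quartile scaling (-0.52, adjusted p = 0.039), total counts in place of TMM (-0.59, adjusted p = 0.017), DESeq2's Wald test (-0.49, adjusted p = 0.0013) and a minimum of 50 counts (-0.50, adjusted p = 0.045). Fosl2 passed it with total counts (-0.29, adjusted p = 0.015), and Egr3 missed it with DESeq2 (-1.21, adjusted p = 0.064). The cause was not tested. Leaving out 1 library at a time gave -0.68 to -0.34 for Junb, -0.29 to -0.086 for Fosl2 and -1.58 to -0.85 for Egr3. With the genes tested kept fixed, an alternative chosen after seeing the data because the filter dropped Fos without a TNF-α library, these were -0.71 to -0.37, -0.26 to -0.11 and -1.61 to -0.88 (Egr3 -1.01 without TNF-α replicate 3). Factors called lower numbered 1 with a minimum of 50 counts, which left Fos, Egr2 and Egr3 untested, 2 with a log2 limit of 2, and 2 to 4 with 1 library left out (2 without TNF-α replicate 3). Of the 85 tested genes of the related lists, those called higher numbered 30 without a fold limit and 8 with a log2 limit of 2. Those called lower numbered 41 and 20. Over all genes tested, 39.4% and 5.94% were called higher at these limits, and 41.4% and 16.6% lower. Total counts moved the median of all genes by -0.11.

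Same-numbered replicates are not labelled as shared, and their deviations correlated at 0.0193, -0.00683 and 0.0676, so they were not treated as pairs. With a replicate block, Egr3 was at -1.23 (adjusted p = 0.049) and Junb at -0.50 (adjusted p = 0.068), and each of the 10 factors kept its side of the threshold, with 4 called lower and 3 higher. Of the genes of the lists, 30 were called lower and 17 higher under the block. Depth limits Fos and Egr3, which lay near or under 10 counts with TNF-α+EMO.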

Other observations

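Proteins that bind AU-rich elements of mRNAs, some of which speed and some of which slow decay, were read as a list of 6 tested genes, of which 3 were called lower and 0 higher (median log2 fold change -0.995). Zfp36l1, of the decay-promoting ZFP36 family, fell by 4.21 on the log2 scale (SE 0.08, adjusted p = 6.0e-12), from 254 ± 16.4 to 13.7 ± 0.264 CPM (SD), and Zfp36l2 of the same family fell by 2.34 (SE 0.17, adjusted p = 1.9e-07). Of 4 tested genes for ubiquitin ligases that act on AP-1 proteins, 1 was called higher and 0 lower, with a median of 0.53. This was Det1, a component of the ligase that targets c-Jun, which rose by 1.55 (SE 0.10, adjusted p = 7.9e-08). All 4 were higher at an adjusted p under 0.05 without a fold limit, as were 39.4% of all genes tested. With the fold limit, 27.8% of all genes tested were called lower and 19.5% higher.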
